A study of Mus musculus with 59 samples.

Results

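The genes described here flank Ehmt2, the gene of the histone methyltransferase G9a, on mouse chromosome 17. They were chosen by position and not by a threshold on any measured change, though with earlier results of these data known. The members are the protein-coding genes of GENCODE vM21 (build GRCm38) in a window around Ehmt2 that had a count in any epiblast of the Ehmt2 cross. Ehmt2 itself, Pou5f1, Ring1 and genes whose symbols begin with Rpl, Rps or Nduf were left out. Of 182 protein-coding genes in the window, 26 were not listed with a count and 6 fell to these exceptions, which left 150 members of the 17704 protein-coding genes listed in the cross. They run from base 32905070 to base 36890123, a span of 3.99 Mb. Of these, 77 lie on the centromeric side of Ehmt2 (chr17:34898469-34914052) and 73 on the telomeric side. Each gene was represented by its transcript with the highest mean raw count over the 14 epiblasts. This transcript is annotated as protein-coding in 128 members. In Tap1, Psmb9, H2-K1 and H2-Q7 it is annotated as a retained-intron form. The question was whether the neighbours of Ehmt2, the MHC genes among them, changed in epiblasts without G9a and not in epiblasts without Ezh2.

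RNA-seq was performed on 14 single mouse epiblasts of mixed background, dissected at E6.25, shortly before gastrulation. The Ehmt2 cross gave 4 epiblasts with the label G9a-/- (Ehmt2-/- below) and 4 controls with the label G9a+/+. The Ezh2 cross gave 3 epiblasts with the label Ezh-/- (Ezh2-/- below) and 3 controls with the label Ezh+/+. Both crosses were intercrosses of heterozygotes, with epiblasts from 4 litters of the Ehmt2 cross and 3 of the Ezh2 cross, and the study's text counts +/+ and +/- epiblasts together as controls, so a control may carry 1 mutated copy. The Ehmt2 mutation derives from a published conditional allele and was also bred to a Pou5f1-EGFP reporter line, and the Ezh2 mutation from another published allele. An Ehmt2-/- epiblast carries on both chromosomes the piece of chromosome 17 that is linked to the mutated allele. Loss of G9a and any difference in that linked DNA therefore cannot be told apart for the members. Ezh2 lies on another chromosome, so the Ezh2 genotype does not fix the chromosome 17 haplotype.

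G9a methylates lysine 9 of histone H3, mainly to the dimethylated state, and Ezh2 is the catalytic subunit of the complex that methylates lysine 27 of the same histone. Both marks go with gene silencing. The region around Ehmt2 holds the mouse major histocompatibility complex, H2. Class I molecules pair a heavy chain such as H2-K1 or H2-D1 with the light chain B2m and carry peptides to the cell surface. The peptides are cut by the proteasome, whose interferon-inducible subunits are Psmb8 and Psmb9, moved into the endoplasmic reticulum by the transporter of Tap1 and Tap2, and loaded with the help of tapasin (Tapbp). Class II molecules are found mainly on antigen-presenting cells of the immune system. The interval also holds complement genes, heat shock genes and many housekeeping genes.

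Library totals ran from 30161171 to 68464895 counts over all transcripts. The labelled genotypes held: Ehmt2 had 10.26, 11.1, 15.5 and 32.8 CPM (counts scaled to a common library total) in controls 1 to 4 and 4.73, 4.47, 3.22 and 9.46 CPM in Ehmt2-/- 1 to 4, a log2 fold change of -1.63 (SE 0.21, edgeR adjusted p = 0.00454), and Ezh2 fell by 2.52 on the log2 scale (SE 0.27, edgeR adjusted p = 0.016) in the Ezh2 cross. Replicate 4 of both Ehmt2 groups stood apart from the others (chi-square per degree of freedom of its counts against the same group 156 to 206, and 17.7 to 47.6 among all other pairs of a group), and the Ehmt2 fit has a term for it. The summed level of 9 epiblast markers was 2589 to 2950 CPM in Ehmt2 controls and 1548 to 2266 CPM in Ehmt2-/- epiblasts, with no overlap. Dnmt3b made up most of these sums, with 1566 to 2031 CPM in controls and 966 to 1393 CPM in Ehmt2-/- epiblasts. The mean of log2(CPM + 0.5) over this list overlapped, at 6.78 to 7.06 in controls and 6.35 to 6.88 in Ehmt2-/- epiblasts. The summed level of 10 extraembryonic ectoderm markers was 24.7 to 126 CPM and 16.9 to 280 CPM in these groups, with Eomes alone giving 16.0 to 119 CPM. As the mean of log2(CPM + 0.5) over the list, these markers were at 0.09 to 0.83 in controls, at 3.55, 2.37 and 2.57 in Ehmt2-/- 1 to 3 and at -0.31 in Ehmt2-/- 4. Elf5 (log2 fold change 6.03, SE 0.86, edgeR adjusted p = 0.0114) and Tfap2c (3.80, SE 0.57, edgeR adjusted p = 0.0119) of this list were higher in Ehmt2-/- epiblasts. This rise was in Ehmt2-/- 1 to 3, and both genes had 0 reads in Ehmt2-/- 4. In the Ezh2 cross, control 2 and knockout 1 had 1167 and 2667 CPM of 11 visceral endoderm markers, where the other 4 libraries had 11.7 to 23.4 CPM. In bulk epiblasts, fewer cells of a type and less RNA per cell cannot be told apart.

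The level of the members differed widely in the 7 controls of both crosses. On a per-length scale, as mean CPM per kb of transcript, 18 members were at or above 10 and 73 were under 1. Tubb5, a beta tubulin, stood highest with 289 CPM per kb. It was followed by Lsm2, a subunit of the ring that binds spliceosomal RNA, with 70.3 CPM per kb and by Hnrnpm, an RNA-binding protein of the spliceosome, with 51.3 CPM per kb. Genes of antigen presentation lay far lower. H2-K1 had 7.36 CPM per kb and H2-D1 1.86, while Tapbp had 1.03 and Psmb8 0.882. Tap1 and Tap2 had 0.055 and 0.045 CPM per kb and held ranks 122 and 126 of the 150 members. High and low members stood side by side along the chromosome, on both sides of Ehmt2.

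**Figure D1:**
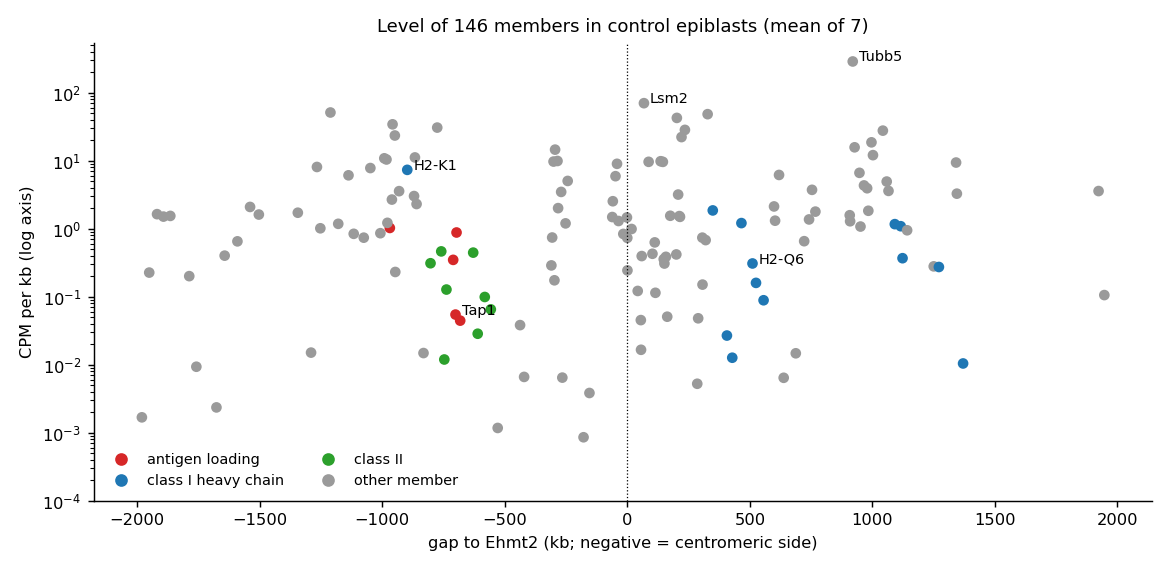
Mean level of each member in the 7 control epiblasts, in CPM per kb of transcript on a log axis, against the distance in kb of the gene from Ehmt2 (negative, centromeric). Each point is 1 of the 146 members with a count in these controls; Tubb5 is highest with 289 CPM per kb, and Tap1 and Tap2 are near 0.05.

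In Ehmt2-/- epiblasts, 1 of the 112 members that could be tested changed. This was Tap1, which was higher. The other 38 members had too few counts to be tested. A gene was called changed at an adjusted p below 0.05 and a log2 fold change beyond 1.4 in edgeR's quasi-likelihood test over all 49872 transcripts tested. The 1 call is 0.893% of the members tested, and 0.499% of all transcripts were called (249) and 0.838% of all protein-coding genes with 1 transcript each (110 of 13126). The share of members called was therefore near the background. At an adjusted p below 0.05 and any fold Tap1 was again the only member, against 0.67% of all transcripts. Without adjustment, 11 members (9.82%) had a p below 0.05, against 11.8% of all transcripts and 15.7% of the protein-coding genes. Of these members 2 were higher and 9 lower, and of all transcripts 6.15% were higher and 5.62% lower. On the remainder of chromosome 17, 1 of 533 genes tested was called and 16.3% had an unadjusted p below 0.05. As a description, the median log2 fold change was -0.09 over the members and -0.01 over all transcripts, and 44 of the 112 members lay above 0.

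Most neighbours of Ehmt2 moved little. The log2 fold change was within 0.5 of 0 in 85 of the 112 members and within 1 in 99. Among the 35 members with a control mean of 10 CPM or more, the largest absolute log2 fold change was 0.46, that of Mdc1. Among the 77 lower members it was 3.45, that of H2-Q6. Large fold changes were thus found among members with few counts. The size of the change varied little with distance. Over the members tested, Spearman's rho between the absolute log2 fold change and the distance from Ehmt2 was -0.12, a description over 112 neighbouring genes of the same libraries. Of 29 tested members within 250 kb of Ehmt2, 2 had an unadjusted p below 0.05, as did 1 of 14 members between 250 and 500 kb, 8 of 38 between 500 and 1000 kb and 0 of 31 farther away. Tap1 lies in the third of these bins, as do H2-Q6 and H2-Q7.

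**Figure D2:**
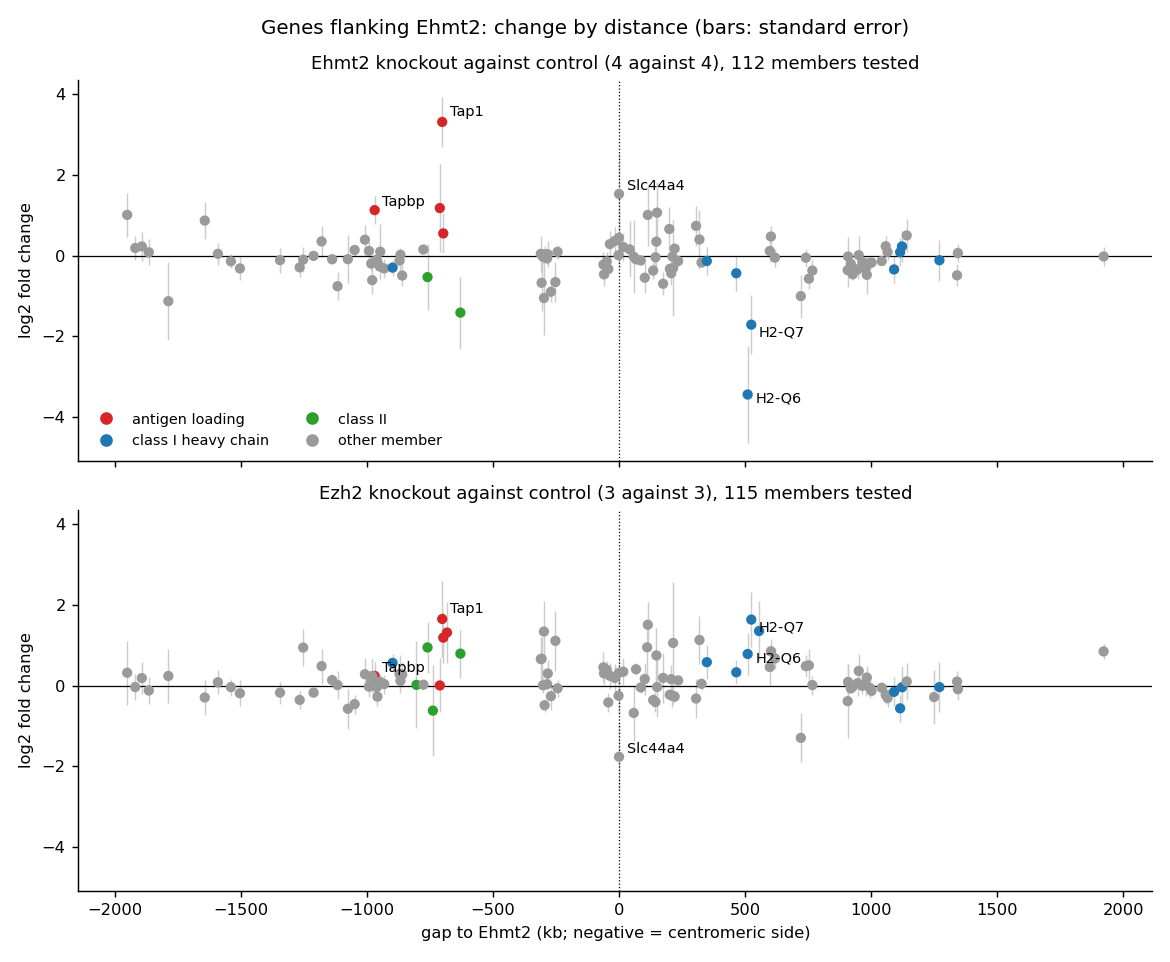
Log2 fold change of the tested members (points, with SE as bars) against distance from Ehmt2 in kb (negative, centromeric), above for Ehmt2-/- against control (112 members) and below for Ezh2-/- against control (115 members). Colours mark antigen loading, class I heavy chain, class II and other members. In the Ehmt2 comparison Tap1, at 3.32, is the only member called by edgeR; the lowest point is H2-Q6, at -3.45, which was not called.

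Tap1 (chr17:34187553-34197225, plus strand, 701.2 kb centromeric of Ehmt2) encodes 1 subunit of the peptide transporter. Its most counted transcript, ENSMUST00000166853, is annotated as a retained-intron form, and 0.8% of its bases overlap exons of Psmb9 on the other strand. It had 5, 10, 4 and 4 reads in controls 1 to 4, or 0.122, 0.212, 0.105 and 0.0721 CPM. In Ehmt2-/- 1 to 4 it had 43, 100, 61 and 21 reads, or 1.20, 2.85, 1.56 and 0.339 CPM. Every Ehmt2-/- epiblast was above every control. Such a separation was found in 2 of the 112 members tested and in 2.56% of all transcripts. The mean rose from 0.128 ± 0.0596 to 1.49 ± 1.04 CPM (SD, n = 4 each). The log2 fold change was 3.32 (SE 0.62, edgeR adjusted p = 0.0366), and the two-sided exact permutation test of the CPM gave 0.0286, the smallest p that 4 against 4 samples allow. A protein-coding transcript, ENSMUST00000170086, which shares exons and reads with the first, rose by a log2 fold change of 3.18 (SE 0.61, edgeR adjusted p = 0.0425). Another retained-intron form, ENSMUST00000168351, had 3.09 (SE 0.69, edgeR adjusted p = 0.0777) and was not called. The remaining Tap1 transcripts were too low to be tested in this cross. Within replicates 1 to 3 alone the log2 fold change was 3.63 (adjusted p = 0.0162), and in replicate 4 the knockout epiblast also exceeded its control.

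The call was close to the threshold. Leaving out control 1, 2 or 3 or Ehmt2-/- 1, 2 or 3 gave edgeR adjusted p-values from 0.0669 to 0.138, with log2 fold changes from 2.93 upward over all such fits. With the extraembryonic ectoderm marker level as a covariate the log2 fold change was 3.10 (edgeR adjusted p = 0.103), and without the term for replicate 4 it was 3.51 (edgeR adjusted p = 0.171). DESeq2 gave 3.35 with an adjusted p of 9.1e-05. The extraembryonic ectoderm markers, as the mean of log2(CPM + 0.5), and Tap1 were both above every control in Ehmt2-/- 1 to 3. Their order within these 3 differed, with the markers at 3.55, 2.37 and 2.57 and Tap1 at 43, 100 and 61 reads. Among the knockouts, Ehmt2-/- 4 had the lowest level of both, a comparison of single epiblasts. The markers were at -0.31 there and at 0.09 in control 4, and Tap1 at 0.339 and 0.0721 CPM. The part of the lower summed epiblast marker level in the rise of Tap1 was not tested.

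The start of Tap1 and that of Psmb9, which points the other way, lie 226 bases apart. Their promoter windows, from 250 bases before to 50 bases after the start in the RefSeq table for GRCm38.p6, share 275 bases. The Tap1 window (chr17:34187306-34187605, plus strand) is printed because Tap1 is the called member and because Psmb9, read from almost the same DNA, was not called. Capitals mark the GC box GGGCGG, which stands here on the opposite strand at positions -176 to -171 from the start.
Tap1: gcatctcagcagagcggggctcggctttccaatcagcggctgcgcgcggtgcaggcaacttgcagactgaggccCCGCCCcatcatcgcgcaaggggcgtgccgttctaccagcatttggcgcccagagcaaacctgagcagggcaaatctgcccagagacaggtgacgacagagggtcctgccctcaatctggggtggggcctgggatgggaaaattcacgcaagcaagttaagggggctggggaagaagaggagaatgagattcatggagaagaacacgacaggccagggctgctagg
The window holds 15 CG dinucleotides, against a median of 12 over the 166 windows of the 123 members found in the table and 7 over all 32851 windows. A GC box on either strand was present in 47.6% of the member windows and 35.7% of all windows. Neither the interferon response letters GAAANNGAAA nor the STAT letters TTCNNNGAA were found in the Tap1 window on either strand. The former letters were in 4 member windows (2.41%, against 3.44% of all windows), those of H2-T22, H2-T23, Trim26 and Gm11127. The STAT letters were in 14 (8.43%, against 8.3%), Psmb8 among them.

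The other genes of antigen loading did not pass the test in Ehmt2-/- epiblasts. Of the 5 members of this list, 4 were tested and all 4 had a log2 fold change above 0, as did 49% of all transcripts. Tapbp (969.2 kb centromeric) had 1.47, 3.02, 2.31 and 4.31 CPM in controls and 2.24, 6.41, 4.77 and 12.7 CPM in Ehmt2-/- 1 to 4. The groups overlapped, with Ehmt2-/- 2, 3 and 4 above every control and Ehmt2-/- 1 among them. The log2 fold change was 1.13 (SE 0.35, edgeR adjusted p = 0.217), and 22.4% of the 40-base windows of its transcript also occur in transcripts of other genes.

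Psmb9 had 0, 0.36, 0.656 and 0.018 CPM in controls and 1.34, 0.684, 0.0511 and 0.0807 CPM in Ehmt2-/- epiblasts. High and low values were found in both groups, and the log2 fold change was 1.18 (SE 1.09, edgeR adjusted p = 0.734). Psmb8 had 1.42, 0.381, 1.21 and 1.24 CPM in controls and 2.27, 1.68, 1.02 and 1.27 CPM in Ehmt2-/- epiblasts, a log2 fold change of 0.55 (SE 0.50, edgeR adjusted p = 0.726). Tap2, the partner of Tap1 in the transporter, was too low to be tested, with 3, 5, 14 and 0 reads in controls and 3, 1, 5 and 0 reads in Ehmt2-/- epiblasts. Tap1 was called at a level of 21 to 100 reads, while its partner had at most 5 reads in an Ehmt2-/- epiblast. Summed over the 5 genes, the list had 3.08 to 5.65 CPM in controls and 7.13 to 14.4 CPM in Ehmt2-/- epiblasts, a description in which Tapbp and Psmb8 have the highest values. In the Ehmt2 cross the highest sum was in Ehmt2-/- 4, where Tapbp had 789 reads, Psmb8 79 and Tap1 21. In the Ezh2 cross the same list summed to 4.08 to 11.3 CPM in controls and 9.55 to 15.5 CPM in Ezh2-/- epiblasts. Those groups overlapped, and the range of the Ezh2 controls also overlapped that of the Ehmt2-/- epiblasts.

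**Figure D3:**
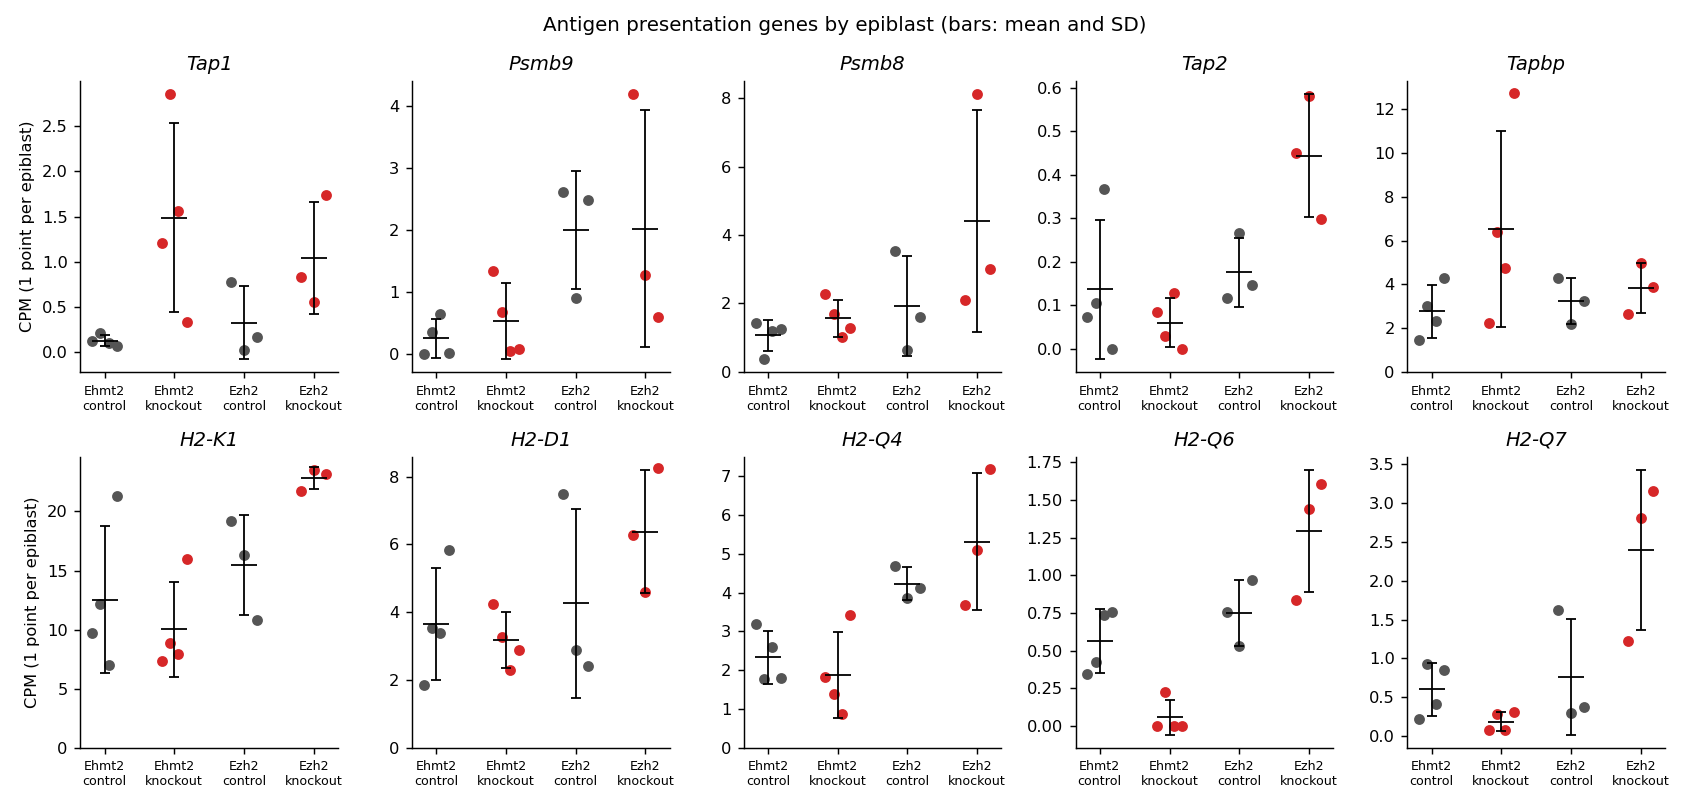
CPM, on linear axes, of 10 antigen presentation genes of the interval in each epiblast of both crosses (points; bars show the group mean and SD, n = 4 for the Ehmt2 groups and 3 for the Ezh2 groups). Tap1 is 0.0721 to 0.212 CPM in Ehmt2 controls and 0.339 to 2.85 CPM in Ehmt2-/- epiblasts; H2-Q6 is above 0 in 1 of 4 Ehmt2-/- epiblasts.

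None of the class I heavy chains was called. Of 13 such members, 9 were tested in the Ehmt2 cross, 2 with a log2 fold change above 0. H2-K1, the classical heavy chain with the highest level, had 9.69, 12.2, 7.00 and 21.3 CPM in controls and 7.36, 8.86, 7.94 and 16.0 CPM in Ehmt2-/- epiblasts. These ranges overlapped, with a log2 fold change of -0.30 (SE 0.20, edgeR adjusted p = 0.603). H2-D1, the other classical heavy chain, had 1.86, 3.53, 3.38 and 5.84 CPM in controls and 4.25, 3.28, 2.30 and 2.89 CPM in Ehmt2-/- epiblasts, with a log2 fold change of -0.13 (SE 0.35). The nonclassical H2-Q4, H2-T24, H2-T23, H2-T22 and H2-T3 had log2 fold changes between -0.44 and 0.23, and none passed the test.

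The lowest fold changes of the class I list belonged to H2-Q6 and H2-Q7, which encode Qa-2 antigens. H2-Q6 (chr17:35424850-35430055, plus strand, 510.8 kb telomeric of Ehmt2) had 14, 20, 28 and 42 reads in controls, or 0.343, 0.423, 0.735 and 0.758 CPM. In Ehmt2-/- 1 to 4 it had 0, 8, 0 and 0 reads. The groups did not overlap, which held in this direction for 2 members (H2-Q6 and Abhd16a) and for 2.53% of all transcripts. At 0 reads, levels of up to 0.0839, 0.0766 and 0.0484 CPM (3 reads) remain possible in Ehmt2-/- 1, 3 and 4, for counting error only. The fitted log2 fold change was -3.45 (SE 1.21, edgeR adjusted p = 0.279), and the exact permutation test gave 0.0286. Without replicate 4 of both genotypes the log2 fold change was -2.70 (edgeR adjusted p = 0.399). H2-Q6 was therefore not called, although it was seen with 8 reads in 1 of 4 Ehmt2-/- epiblasts and in all controls. H2-Q7 (chr17:35439155-35443773, plus strand) had 0.22, 0.931, 0.42 and 0.848 CPM in controls and 0.0839, 0.285, 0.0766 and 0.307 CPM in Ehmt2-/- epiblasts, with a log2 fold change of -1.71 (SE 0.73, edgeR adjusted p = 0.385). These H2-Q7 values are of a retained-intron form, and its protein-coding transcripts were too low to be tested in the Ehmt2 cross.

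Both genes are near copies of each other and of other H2-Q genes, so their reads cannot be assigned with certainty. Of the 40-base windows of the transcripts, 42.5% of H2-Q6 and 34.0% of H2-Q7 also occur in transcripts of other genes. Their promoter windows show the same likeness (H2-Q6 at chr17:35424600-35424899 and H2-Q7 at chr17:35438905-35439204, both on the plus strand). They are printed to show how little of this DNA separates the pair. Over 260 aligned bases, 254 were identical and 6 differed, with 1 further base against a gap. Capitals mark the bases that differ or face the gap.
H2-Q6: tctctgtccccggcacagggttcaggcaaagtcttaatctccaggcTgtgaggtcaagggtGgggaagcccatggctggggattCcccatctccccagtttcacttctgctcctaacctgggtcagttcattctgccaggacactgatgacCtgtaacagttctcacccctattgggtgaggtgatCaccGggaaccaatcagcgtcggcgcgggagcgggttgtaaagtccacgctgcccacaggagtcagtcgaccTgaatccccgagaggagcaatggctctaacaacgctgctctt
H2-Q7: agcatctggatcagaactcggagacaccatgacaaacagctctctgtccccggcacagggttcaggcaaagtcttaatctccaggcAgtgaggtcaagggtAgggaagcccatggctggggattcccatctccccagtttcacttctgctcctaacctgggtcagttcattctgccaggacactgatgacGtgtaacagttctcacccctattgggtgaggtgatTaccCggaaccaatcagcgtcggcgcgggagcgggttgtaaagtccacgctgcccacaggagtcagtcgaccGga
The summed level of 12 blood and leukocyte markers was 3.95 to 8.37 CPM in Ehmt2 controls and 2.10 to 3.55 CPM in Ehmt2-/- epiblasts, without overlap. This separation came from a single gene, Coro1a, an actin regulator, with 139 to 217 reads in controls and 39 to 130 reads in Ehmt2-/- epiblasts. Without it the sums overlapped, at 0.0361 to 3.57 CPM in controls and 0.662 to 2.22 CPM in Ehmt2-/- epiblasts, and Laptm5 had a log2 fold change of 1.11 (SE 0.92) and Cd74 one of -0.44 (SE 0.90). The part of these markers in the H2-Q6 and H2-Q7 values was not tested. The defining leukocyte gene Ptprc had 0 to 14 reads over these 8 epiblasts. Tyrobp and the 4 globin genes had at most 3 reads in every Ehmt2-/- epiblast. Control 1 had 40 reads of Hbb-bs, 13 of Hbb-bt and 5 of Hba-a1, and control 2 had 8 of Tyrobp. All other control values of these genes were at most 3 reads.

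Class II genes were low, and most had too few counts to be tested. Of 9 such members, 2 were tested in the Ehmt2 cross and 0 were called. H2-Ab1, a chain of the I-A molecule, had 16, 23, 14 and 5 reads in controls and 8, 13, 1 and 0 reads in Ehmt2-/- epiblasts, with a log2 fold change of -1.42 (SE 0.89, edgeR adjusted p = 0.581). H2-DMa, a chain of the molecule that loads peptides onto class II, had 73, 18, 25 and 8 reads in controls and 3, 16, 33 and 20 reads in Ehmt2-/- epiblasts, with a log2 fold change of -0.53 (SE 0.82), which turned to 1.46 with the extraembryonic ectoderm marker level as a covariate. These 2 genes had overlapping groups. Summed over the class II list, the level was 1.371 to 2.50 CPM in Ehmt2 controls and 0.532 to 1.368 CPM in Ehmt2-/- epiblasts. This is a description in which the nearest values almost met. In the Ezh2 cross the sums were 2.19 to 3.45 CPM in controls and 3.35 to 6.21 CPM in Ezh2-/- epiblasts. H2-Aa had at most 14 reads in any of the 14 epiblasts, H2-DMb2 at most 2 and H2-Ob at most 1. A change in these genes was not detectable at this depth.

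The genes closest to Ehmt2 showed no called change. On the centromeric side these are C2 (0.2 kb away) and Cfb, both complement enzymes, Zbtb12 (1.6 kb), a zinc finger gene, Gm20547, and Nelfe (42.1 kb), a subunit of the complex that holds back elongating polymerase. Their log2 fold changes in Ehmt2-/- epiblasts were 0.44, 0.29, 0.01, 0.36 and -0.33. Cfb and Gm20547 share 81.5% and 98.1% of their 40-base windows with other transcripts, so their values are not separate measurements. On the telomeric side the nearest tested members are Slc44a4 (0.4 kb), a choline transporter-like gene, Neu1 (17.2 kb), the lysosomal sialidase, the heat shock genes Hspa1b (42.4 kb) and Hspa1l (58.7 kb), and Lsm2 (67.8 kb). Their log2 fold changes were 1.53, 0.21, 0.16, -0.03 and -0.09.

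Slc44a4 had the largest value among the nearest genes and the widest spread. Its CPM was 0.171, 0.402, 0.262 and 1.75 in controls and 3.16, 1.11, 0.587 and 0.274 in Ehmt2-/- epiblasts. Replicate 4 ran against the other replicates: its control was the highest control and its knockout the lowest knockout. The log2 fold change of 1.53 had an SE of 1.01 (edgeR adjusted p = 0.600), and with the extraembryonic ectoderm marker level as a covariate it was -1.73. Lsm2, by contrast, was measured closely, with 68.4, 54.3, 55.6 and 81.9 CPM in controls and 51.7, 48.0, 63.7 and 82.5 CPM in Ehmt2-/- epiblasts (SE of the log2 fold change 0.13). Of the 8 complement, heat shock and TNF family members of the interval, 4 were tested in the Ehmt2 cross and 0 had an unadjusted p below 0.05. Among those not tested, Tnf had at most 2 reads, C4b at most 5, Lta at most 8 and Hspa1a at most 17 in any epiblast.

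The remaining members with an unadjusted p below 0.05 in the Ehmt2 cross were all lower, and none held after adjustment. Mdc1, a mediator of the DNA damage checkpoint, had 89.6, 111, 147 and 133 CPM in controls and 93.2, 86.3, 77.3 and 91.7 CPM in Ehmt2-/- epiblasts, with a log2 fold change of -0.46 (SE 0.14, edgeR adjusted p = 0.207). Ehmt2-/- 1 and 4 lay just above the lowest control, and the others below all controls. Abhd16a, a lipid hydrolase, had 2.94, 3.51, 2.70 and 4.65 CPM in controls and 2.29, 1.91, 1.81 and 2.37 CPM in Ehmt2-/- epiblasts, with a log2 fold change of -0.70 (SE 0.28, edgeR adjusted p = 0.359). Every Ehmt2-/- epiblast was below every control, with an exact permutation p of 0.0286. Ppt2, a lysosomal thioesterase, had a log2 fold change of -0.90 (SE 0.27, edgeR adjusted p = 0.193). Gtf2h4, a subunit of the general factor TFIIH, had -0.57 (SE 0.25), Csnk2b, the regulatory subunit of casein kinase, -0.33 (SE 0.14), Wdr46, a nucleolar protein, -0.27 (SE 0.12) and Tubb5 -0.20 (SE 0.08). Their edgeR adjusted p-values lay between 0.380 and 0.402. The second member whose Ehmt2-/- values all exceeded the controls, Ly6g6c of the Ly6 family, had 0.0262 to 0.269 CPM in controls and 0.285 to 0.616 CPM in Ehmt2-/- epiblasts (log2 fold change 1.07, SE 0.75, edgeR adjusted p = 0.628).

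In Ezh2-/- epiblasts 0 of the 115 members tested were called, with or without the fold threshold. In this cross 6 of 50855 transcripts were called (0.0118%), and 8 members (6.96%) had an unadjusted p below 0.05, against 7.02% of all transcripts. Of these members 7 were higher and 1 was lower, and of all transcripts 4.05% were higher and 2.97% lower. DESeq2 gave 1 member with an adjusted p below 0.05, Trim26, and none beyond the fold threshold. The shares of all transcripts given here are those of edgeR, so this DESeq2 count has no background beside it. The members' median log2 fold change was 0.09 and that of all transcripts 0.01. Trim26, a ubiquitin ligase named here after its values were seen, also had the smallest unadjusted p in edgeR. It had 11.5, 9.45 and 10.16 CPM in controls and 17.1, 19.1 and 19.8 CPM in Ezh2-/- epiblasts, a log2 fold change of 0.85 (SE 0.18, edgeR adjusted p = 0.333). In the Ehmt2 cross the same gene had a log2 fold change of -0.02 (SE 0.24). All Ezh2-/- epiblasts were above all controls for 7 members (6.09% of those tested, with 6.46% of all transcripts) and below them for 6 (5.22%, with 6.61%), and 3 against 3 samples cannot give an exact permutation p under 0.1.

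Tap1 was not called in the Ezh2 cross, but its values there were spread widely. The 3 controls had 27, 1 and 6 reads, or 0.783, 0.0295 and 0.176 CPM, and Ezh2-/- 1 to 3 had 26, 20 and 64 reads, or 0.837, 0.554 and 1.74 CPM. The log2 fold change was 1.65 (SE 0.94, edgeR adjusted p = 0.791). Single epiblasts moved this value: without control 1, the highest control, the log2 fold change was 3.30 (edgeR adjusted p = 0.571). Without control 2 or control 3 it was 1.12 or 1.35. Without Ezh2-/- 1, 2 or 3 it was 1.79, 1.96 or 1.06. The extraembryonic ectoderm markers stood at 0.19 to 0.70 in Ezh2 controls and at 0.52 to 1.82 in Ezh2-/- epiblasts, as the mean of log2(CPM + 0.5), and their part in the Ezh2 cross was not tested. Tap2 had 0.116, 0.266 and 0.146 CPM in controls and 0.451, 0.582 and 0.299 CPM in Ezh2-/- epiblasts, with a log2 fold change of 1.32 (SE 0.75, edgeR adjusted p = 0.790). Each Ezh2-/- epiblast was above the controls. Psmb8 had a log2 fold change of 1.19 (SE 0.63, edgeR adjusted p = 0.775), Psmb9 one near 0 (SE 0.67) and Tapbp one of 0.24 (SE 0.36).

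The effects of the 2 knockouts were compared by an interaction term over all 14 epiblasts, and 0 of 120 members tested were called. This does not show that the 2 effects were alike. Of 55248 transcripts, 31 were called (0.0561%), and 11 members had an unadjusted p below 0.05 (9.17%, with 8.33% of all transcripts). The change was higher in the Ehmt2 cross for 2 of them and lower for 9, with 3.81% and 4.53% of all transcripts. For Tap1 the log2 fold change in the Ehmt2 cross exceeded that in the Ezh2 cross by 1.66 (SE 1.11, edgeR adjusted p = 0.735). The difference was 0.01 without Ezh2 control 1 and 2.20 without Ezh2 control 2. The difference between the crosses in Tap1 was thus within its error and moved with single Ezh2 controls.

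Of these 11 members 3 were class I heavy chains, all lower in the Ehmt2 cross, and none held after adjustment. H2-Q6 had 26, 18 and 33 reads in Ezh2 controls and 26, 52 and 59 reads in Ezh2-/- epiblasts, a log2 fold change of 0.79 (SE 0.53). The difference from the Ehmt2 cross was -4.23 (SE 1.42, edgeR adjusted p = 0.430). Without Ehmt2-/- 2, the 1 knockout with reads, H2-Q6 was called (edgeR adjusted p = 0.0404), and the remaining Ehmt2-/- epiblasts were then all at 0 reads, so that no fold is given. H2-Q7 had 1.62, 0.295 and 0.381 CPM in Ezh2 controls and 1.22, 2.80 and 3.16 CPM in Ezh2-/- epiblasts, and its difference was -3.35 (SE 1.01, edgeR adjusted p = 0.382). Without Ezh2 control 1 the log2 fold change of H2-Q7 in the Ezh2 cross moved from 1.64 to 2.81 and the difference to -4.52 (edgeR adjusted p = 0.274). With single epiblasts left out in turn, the former ran from 1.25 to 2.81 and the latter from -4.52 to -2.86. H2-K1 had 19.2, 16.3 and 10.8 CPM in Ezh2 controls and 21.8, 23.5 and 23.2 CPM in Ezh2-/- epiblasts, a log2 fold change of 0.56 (SE 0.21, edgeR adjusted p = 0.619), and its difference was -0.86 (SE 0.29, edgeR adjusted p = 0.435). The fold changes of all 3 genes were below 0 in the Ehmt2 cross and above 0 in the Ezh2 cross, and passed the test in neither. The blood and leukocyte markers summed to 3.78 to 5.07 CPM in Ezh2 controls and 4.54 to 6.57 CPM in Ezh2-/- epiblasts. Slc44a4 differed in the other direction by 3.31 (SE 1.42, edgeR adjusted p = 0.547).

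Of 109 members tested in both crosses, which share no epiblasts, 24 had a log2 fold change above 0 in both and 26 below 0 in both. In 42 the value was below 0 in the Ehmt2 cross and above 0 in the Ezh2 cross, and in 17 the reverse.

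**Figure D4:**
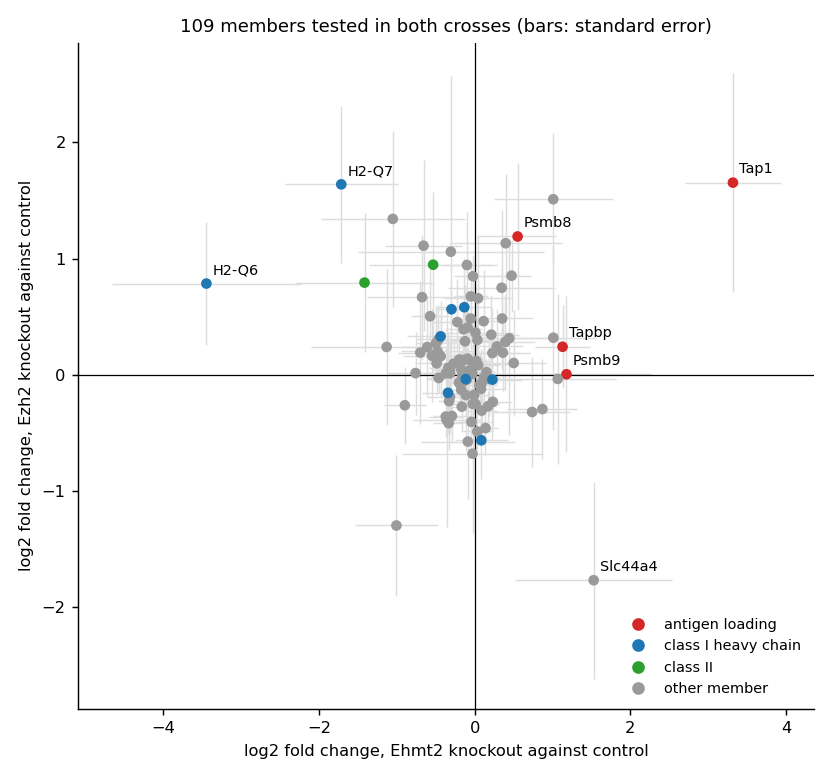
Log2 fold change of each member tested in both crosses (109 points), Ehmt2-/- against control on the horizontal axis and Ezh2-/- against control on the vertical axis; bars are SE and solid lines mark 0. Tap1 lies at 3.32 and 1.65, and H2-Q6 at -3.45 and 0.79.

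Genes of the class I pathway that lie elsewhere in the genome were used as a comparison with the members. Of 20 such genes, all 20 were tested in the Ehmt2 cross, 0 were called and 14 had a log2 fold change above 0. The light chain gene B2m had 4.33 ± 1.01 CPM in controls and 6.22 ± 0.741 CPM in Ehmt2-/- epiblasts (SD, n = 4), a log2 fold change of 0.55 (SE 0.24, edgeR adjusted p = 0.405). In the Ezh2 cross its log2 fold change was 0.98 (SE 0.25, edgeR adjusted p = 0.434). Erap1, the peptidase that trims peptides in the endoplasmic reticulum, went from 7.02 to 11.1 CPM in the Ehmt2 cross, a log2 fold change of 0.64 (SE 0.25, edgeR adjusted p = 0.336). The transcription factor gene Irf2 had 0.25 ± 0.151 CPM in controls and 2.27 ± 1.89 CPM in Ehmt2-/- epiblasts, a log2 fold change of 2.97 (SE 0.74, edgeR adjusted p = 0.117). Its level was 4.98, 1.91, 1.56 and 0.629 CPM in Ehmt2-/- 1 to 4, highest in the epiblast with the highest extraembryonic ectoderm marker level and lowest in that with the lowest, and the part of these markers was not tested. These 3 were the genes of the list with an unadjusted p below 0.05, 15% of it, against 15.7% of the protein-coding genes. Nlrc5, the activator of class I genes, averaged under 0.5 CPM in both Ehmt2 groups, with a log2 fold change of 0.65 (SE 1.22).

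**Figure D5:**
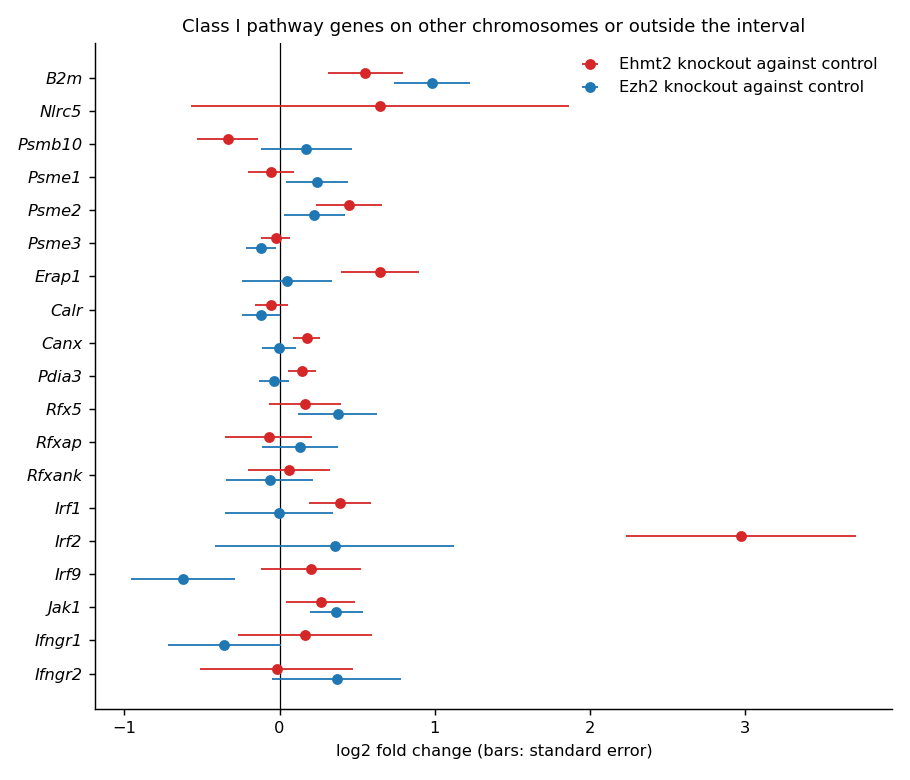
Log2 fold change with its SE (points and bars) for 19 of the 20 genes of the class I pathway outside the interval, Ehmt2-/- against control in red and Ezh2-/- against control in blue. Irf2 at 2.97 (SE 0.74) is the highest value of the Ehmt2 cross and B2m at 0.98 (SE 0.25) that of the Ezh2 cross; none was called.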

How the data were processed

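The study's authors amplified 750 pg of RNA from each epiblast without keeping strand, sequenced it single-end, aligned the trimmed reads to GRCm38/mm10 with TopHat2 (Bowtie) and counted them per Ensembl transcript with HTSeq (versions not given in the sources used here). The authors deposited 1 table of raw read counts per epiblast; the other assays of the series were not analysed here. A row of unaligned reads in both replicate 4 tables of the Ehmt2 cross (12.6% and 13.3% of the table) was left out. Of 72515 transcripts, 70021 (96.6%) matched GENCODE vM21. Of the members, 54 share exon bases with another gene, so their reads cannot be separated without strand.

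Counts were tested per transcript with edgeR 4.0.16 (R 4.3.3; quasi-likelihood test, TMM scaling, filterByExpr, Benjamini-Hochberg adjustment over all transcripts). The Ehmt2 fit had a term for replicate 4, and the Ezh2 fit had none. In the study's source data knockout 4 is set against control 4, while its methods text has each knockout compared with all controls. CPM were scaled to the TMM-corrected total within a cross, and each SE was derived from the F statistic and the fold change. DESeq2 1.42.0 was an alternative. Others were no filter, 1 transcript per gene, another representative transcript, no term for replicate 4, a replicate block, the extraembryonic ectoderm marker level as a covariate, and leaving out each epiblast. Single members were also tested by two-sided exact permutation (scipy 1.17.1). The scripts were tested on simulated data. Nothing in the labels ties epiblasts to litters, so p-values measure the spread between epiblasts.

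Named were the members of the antigen loading, class I and class II lists, the 5 tested members nearest Ehmt2 on each side, members called in any comparison and the 10 with the largest absolute log2 fold change at an unadjusted p below 0.05 in the Ehmt2 cross. Members named for a position in a group, level or the Ezh2 cross (Trim26, Ly6g6c, and the highest members by level) were chosen after their values were seen. The members and lists were chosen with earlier results of these data known. Results of some single list genes are not reported here.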

Additional observations from a re-analysis of the deposited data

Results flagged for a closer look

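Groups of 4 epiblasts were examined over 43 named members. Of 84 such groups, 10 held 1 epiblast far from the others (gap over range above 0.829). Chance gives about 5% for normally distributed values. Where the other epiblasts of a group had 0 reads, the ratio is 1 at any count and the 5% does not apply. Of the 10 outlying epiblasts, 4 were replicate 4. In control 4 of the Ehmt2 cross, Nelfe had 30.0 CPM (others 10.47 to 12.8), Slc44a4 had 1.75 CPM (others 0.171 to 0.402) and Hspa1l had 1.70 CPM (others 0.318 to 0.472). All 3 lie within 60 kb of Ehmt2 and had been named for that position, so the choice of members favoured such genes. They were measured with 1664, 97 and 94 reads. H2-Q6 had 0.228 CPM in Ehmt2-/- 2, from 8 reads, and 0 in the other Ehmt2-/- epiblasts. The others rest on 1 or 2 reads where the remaining epiblasts of the group had 0. They were H2-Oa in Ehmt2-/- 2 (0.057 CPM), H2-DMb2 in control 4 (0.0361 CPM) and in Ehmt2-/- 1 (0.028 CPM), H2-Ob and H2-Aa in Ehmt2-/- 3 (0.0255 CPM each) and H2-M10.2 in control 3 (0.0525 CPM).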

How the results depend on the processing

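The count of members called in the Ehmt2 cross, 1 (Tap1), was 0 with the replicate block, 0 without the term for replicate 4 and 0 with the extraembryonic ectoderm marker level as a covariate, and ran from 0 to 1 when single epiblasts were left out. The cause was not tested. It was 0 under every alternative in the Ezh2 cross, and for the difference between crosses 0 to 1 when single epiblasts were left out (1, H2-Q6, without Ehmt2-/- 2). The labels do not tie the replicate numbers to litters, and the numbers as a whole did not pair the epiblasts: same-numbered epiblasts had correlations of 0.053, 0.095 and 0.16 for replicates 1 to 3 of the Ehmt2 cross and of -0.003, -0.116 and 0.153 in the Ezh2 cross. Replicate 4 of the Ehmt2 cross did go together (0.362, and -0.143 to -0.236 with other numbers), which the term for replicate 4 takes up. With the block, Tap1 had a log2 fold change of 3.30 (edgeR adjusted p = 0.104). With the extraembryonic ectoderm covariate the members' median was -0.21.

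These members turned sign, none of them past the test. In the Ehmt2 cross with that covariate, H2-DMa had 1.46, Zbtb12 -0.29, Slc44a4 -1.73, Neu1 -0.73, Lsm2 0.020, H2-Q4 0.25 and H2-T3 0.25, and with 1 transcript per gene Zbtb12 had -0.0076. In the Ezh2 cross with the replicate block, H2-Oa had -0.53, Psmb9 -0.23 and C2 -0.071. Psmb9 had -0.0054 without the filter and -0.0098 with 1 transcript per gene, and H2-T3 had 0.019 with the other transcript. With single epiblasts left out of the Ehmt2 cross, log2 fold changes spanned 0 for C2 (-0.083 to 0.79, and -0.082 without replicate 4 of both genotypes), H2-D1 (-0.36 to 0.16), H2-DMa (-1.02 to 0.20), H2-T23 (-0.16 to 0.27), H2-T3 (-0.30 to 0.030), Hspa1b (-0.23 to 0.70), Hspa1l (-0.43 to 0.86), Neu1 (-0.15 to 0.56) and Zbtb12 (-0.12 to 0.24). In the Ezh2 cross they did so for Abhd16a (-0.47 to 1.21), C2 (-0.88 to 0.71), Gm20547 (-0.078 to 0.46), Gtf2h4 (-0.038 to 0.79), H2-Oa (-0.42 to 0.60), H2-T22 (-0.29 to 0.12), H2-T3 (-0.16 to 0.12), Mdc1 (-0.12 to 0.086), Psmb9 (-1.10 to 0.44), Wdr46 (-0.035 to 0.28) and Zbtb12 (-0.94 to 0.079). Of the members, 38 in the Ehmt2 cross and 35 in the Ezh2 cross were too low to be tested, and 3 reads corresponded to 0.0484 to 0.0855 CPM in Ehmt2-/- epiblasts.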
